A study of Rattus norvegicus with 12 samples.

Results

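Transcripts of 10 oocyte genes were followed in ovarian RNA-seq libraries of Sprague Dawley rats. The genes were chosen by name, and not by a rule on their values, as Gdf9, Bmp15, Zp1, Zp2, Zp3, Nlrp5, Figla, Nobox, Ddx4 and Oosp1. Earlier results of these data were known when they were chosen. The deposited table held 9 of these 10 names among its 19730 genes, and Oosp1 had no line under that name. Wild-type females were compared in 3 groups at postnatal week 15, with 4 rats and 4 libraries in each group. The Control group was untreated and ate standard food. The PCOS group, a model of polycystic ovary syndrome, received the aromatase inhibitor letrozole for 30 days together with a high-fat diet. The PCOS-MV group received the same letrozole and diet and then mogroside V (MV), a triterpenoid glycoside of the monk fruit, for 30 days. By the paper's schedule, letrozole and the high-fat diet ended before the MV period, and all rats were killed at its end. Rats were accepted as PCOS models by their vaginal smears. Each library was made from ovary tissue, so RNA from oocytes was mixed with RNA from granulosa, theca, luteal and stromal cells.

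In the ovary these transcripts come mainly from the oocyte. It secretes GDF9 and BMP15, a pair of growth factors of the TGF-beta family that act on the granulosa and cumulus cells around it. It also secretes the zona pellucida glycoproteins ZP1, ZP2 and ZP3, which form the egg coat where sperm bind. Nlrp5 encodes a protein of the subcortical maternal complex, which is stored in the egg cytoplasm and needed by the early embryo. FIGLA and NOBOX are transcription factors of early oocytes, and FIGLA binds the E-box motif in the promoters of the zona genes. Ddx4, also called Vasa, encodes an RNA helicase of germ cells.

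Promoter sequences were found in the RefSeq promoter table of the GRCr8 assembly for 8 of the 9 genes found, and Zp2 had no entry there. The 250 bases before the gene start were searched on both strands for the E-box CANNTG, which reads the same on both strands. The motif was present in the window of all 8 genes, beside 65.5% of 33469 RefSeq promoters of the same length. The number of matches was 1 in Gdf9, Bmp15 and Ddx4, 2 in Nlrp5 and Nobox, 3 in Zp1 and Zp3, and 5 in Figla. A match of 6 letters is a description of the sequence and not a binding site. The homeobox motifs TAATTG and TAATTA, which do not overlap CANNTG, were not found on either strand in these 8 windows, and 7.31% and 4.86% of all promoters held them. Windows are printed for both growth factors and for 2 zona genes, since Gdf9 and Zp1 are the genes whose PCOS-MV and PCOS libraries did not overlap and Bmp15 and Zp3 share their roles. Each runs 5′ to 3′ on the strand of the gene, and capitals mark CANNTG. The positions in GRCr8 were chr10:38096301-38096550 on the plus strand for Gdf9, chrX:18840693-18840942 on the plus strand for Bmp15, chr1:216992149-216992398 on the minus strand for Zp1 and chr12:26334127-26334376 on the minus strand for Zp3.
Gdf9: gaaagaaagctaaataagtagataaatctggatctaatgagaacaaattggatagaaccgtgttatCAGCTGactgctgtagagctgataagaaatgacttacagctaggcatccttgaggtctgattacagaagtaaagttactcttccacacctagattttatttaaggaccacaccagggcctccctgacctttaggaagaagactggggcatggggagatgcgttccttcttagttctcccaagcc
Bmp15: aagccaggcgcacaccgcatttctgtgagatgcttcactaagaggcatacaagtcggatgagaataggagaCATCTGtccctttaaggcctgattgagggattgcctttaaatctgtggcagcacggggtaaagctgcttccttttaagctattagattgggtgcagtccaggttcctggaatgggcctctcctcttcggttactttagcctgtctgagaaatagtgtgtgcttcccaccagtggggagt
Zp1: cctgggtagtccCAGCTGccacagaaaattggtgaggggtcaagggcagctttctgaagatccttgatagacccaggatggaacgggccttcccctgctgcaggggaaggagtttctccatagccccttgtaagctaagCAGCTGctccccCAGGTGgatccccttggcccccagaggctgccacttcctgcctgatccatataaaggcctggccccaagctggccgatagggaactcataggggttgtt
Zp3: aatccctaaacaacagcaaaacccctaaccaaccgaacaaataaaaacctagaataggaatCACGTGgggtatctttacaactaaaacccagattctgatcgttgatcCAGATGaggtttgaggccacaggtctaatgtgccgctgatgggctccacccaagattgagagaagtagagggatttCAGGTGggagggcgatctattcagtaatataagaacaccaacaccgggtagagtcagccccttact

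Expression was given as FPKM, the number of fragments scaled to the length of the transcript and to the depth of the library, so levels of different genes can be compared per length. For genes with 1 transcript, FPKM multiplied by the length fell on steps that implied 30200000 to 37100000 fragments per library. Between 42.6% and 47.7% of the low products lay within 0.1 of a whole fragment, where 20% would lie if evenly spread, so fragment numbers given here are approximate. Control replicate 3 stood apart from the other 11 libraries. The oviduct markers Dnah5, Pax8 and Tekt1 summed to 21.1 FPKM in it and to 2.14 to 3.70 FPKM elsewhere, and the smooth muscle markers Myh11, Des and Cnn1 summed to 273 FPKM in it and to 75.0 to 132 FPKM elsewhere. Values without that library are given wherever it changed a call. Markers of other ovarian cells also moved with the groups. The theca markers Cyp17a1, Insl3 and Ptch1 summed to 44.8 to 90.8 FPKM in Control, 1576 to 3073 FPKM in PCOS and 25.7 to 124 FPKM in PCOS-MV, a sum set by Cyp17a1 and Insl3, while Ptch1 was called lower in PCOS (0.726 times Control). The 7 granulosa markers summed to 637 to 870 FPKM in Control, 1079 to 1533 FPKM in PCOS and 582 to 1105 FPKM in PCOS-MV. Most of that sum was Inha, and 4 of the 7 (Fshr, Inha, Inhba and Cyp19a1) were called higher in PCOS than in Control, while Foxl2 (1.17 times), Hsd17b1 (0.856 times) and Amh (0.573 times) were not called. The endothelial marker Cdh5 was at 25.4 to 35.04 FPKM in Control, 14.7 to 16.0 FPKM in PCOS and 21.5 to 40.4 FPKM in PCOS-MV. The 4 adipocyte markers summed to 5.27 to 36.1 FPKM in Control, 0.69 to 3.85 FPKM in PCOS and 1.09 to 2.03 FPKM in PCOS-MV. Their part in the results for oocyte genes was not tested.

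The oocyte genes were expressed in every one of the 12 libraries, at low levels for ovary tissue. Zp2 was the most abundant at a mean of 5.26 ± 1.57 FPKM (SD, n = 12), and 47.2% of the genes in the table had a higher mean. Gdf9 followed at 4.42 ± 1.15 FPKM and Zp3 at 4.05 ± 0.966 FPKM. Bmp15 at 1.56 ± 0.440 FPKM and Nlrp5 at 1.45 ± 0.450 FPKM formed a lower step. Zp1 (0.816 ± 0.313 FPKM), Figla (0.774 ± 0.410 FPKM), Nobox (0.554 ± 0.156 FPKM) and Ddx4 (0.280 ± 0.0618 FPKM) had means under 1 FPKM. In this order, Zp3 exceeded Bmp15 in 12 of 12 libraries, Nlrp5 exceeded Zp1 in 12 of 12 and Nobox exceeded Ddx4 in 11 of 12. The other neighbours were not separated in this way, since the higher gene by mean was also higher in 9 libraries for Zp2 against Gdf9 and for Gdf9 against Zp3, in 8 for Bmp15 against Nlrp5 and for Figla against Nobox, and in 6 for Zp1 against Figla. None of the 9 genes overlapped another gene of the table.

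**Figure D1:**
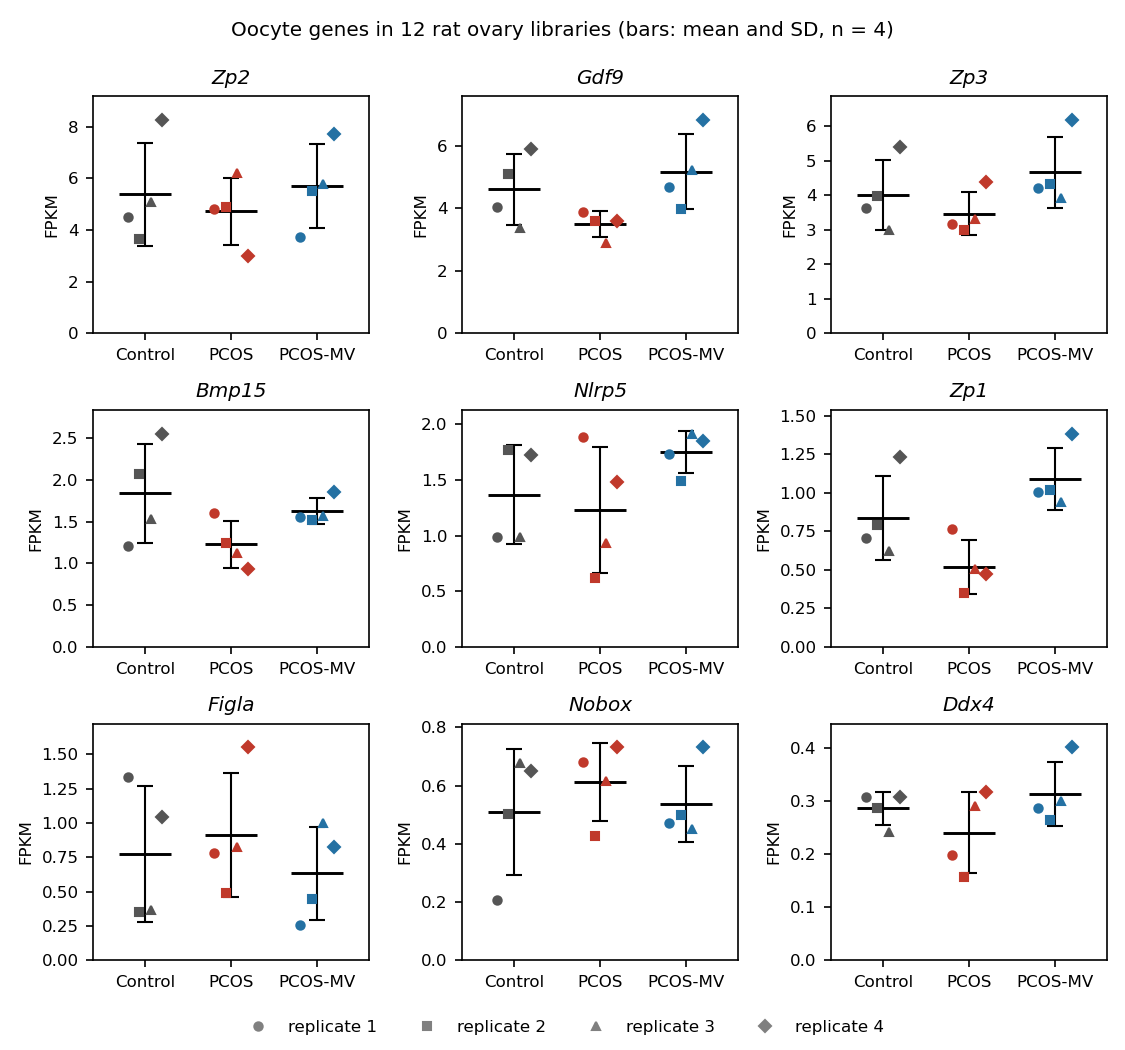
FPKM of the 9 oocyte genes found, in order of their mean, with 1 point per library (marker shape gives the replicate) and the mean and SD of the 4 libraries of each group in black. Every vertical axis starts at 0. The PCOS points of Gdf9 (2.90 to 3.88 FPKM) and Zp1 (0.35 to 0.76 FPKM) lie below all PCOS-MV points of the same gene, while the groups overlap in the other 7 panels for that comparison.

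The first comparison asked how the PCOS model differed from Control, the second how PCOS-MV differed from PCOS, and the last whether PCOS-MV differed from Control. The test was run with limma on log2(FPKM + 1) for the 13430 genes whose mean reached 1 FPKM, which included 5 oocyte genes (Gdf9, Bmp15, Zp2, Zp3 and Nlrp5). The means of 7 of the 9 oocyte genes were lower in PCOS than in Control, but 0 of the 5 tested genes were called at an adjusted p under 0.05, where 27.4% of all genes tested were called. Their adjusted p ranged from 0.176 to 0.751 by limma, 0 had an unadjusted p under 0.05, beside 39.4% of all genes, and no gene of the 9 separated the groups, as 25.2% of all genes in the table did. In PCOS-MV, the means of 7 of the 9 genes were higher than in PCOS. Again 0 of 5 were called, beside 25.7% of all genes, and 2 of 5 (Gdf9 and Zp3) had an unadjusted p under 0.05, beside 38.5% of all genes. The PCOS-MV and PCOS libraries did not overlap for Gdf9 and Zp1, which is 2 of 9 genes, beside 23.9% of all genes in the table in either direction and 12.8% with PCOS-MV higher. Between PCOS-MV and Control 0 of 5 were called, beside 0.00745% of all genes, 0 had an unadjusted p under 0.05, beside 8.5%, and no gene of the 9 separated the groups, as 4.93% of all genes in the table did. The share of oocyte genes called was not above that of all genes in any of the 3 comparisons, and the share separated between PCOS-MV and PCOS was near that of all genes in either direction.

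The median difference over the 5 tested genes on the log2(FPKM + 1) scale was -0.15 for PCOS against Control, where the median of all genes was -0.03. It was 0.34 for PCOS-MV against PCOS, where the median of all genes was 0.03, and 0.14 for PCOS-MV against Control, where the median of all genes was -0.0037. The first 2 comparisons share the PCOS libraries, so a low value there enters both. Where a level is lower in ovary tissue, fewer oocytes in the tissue, less RNA per oocyte and a larger share of RNA from other cells cannot be told apart. With 4 libraries against 4, an exact permutation test cannot give a p below 0.0286.

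**Figure D2:**
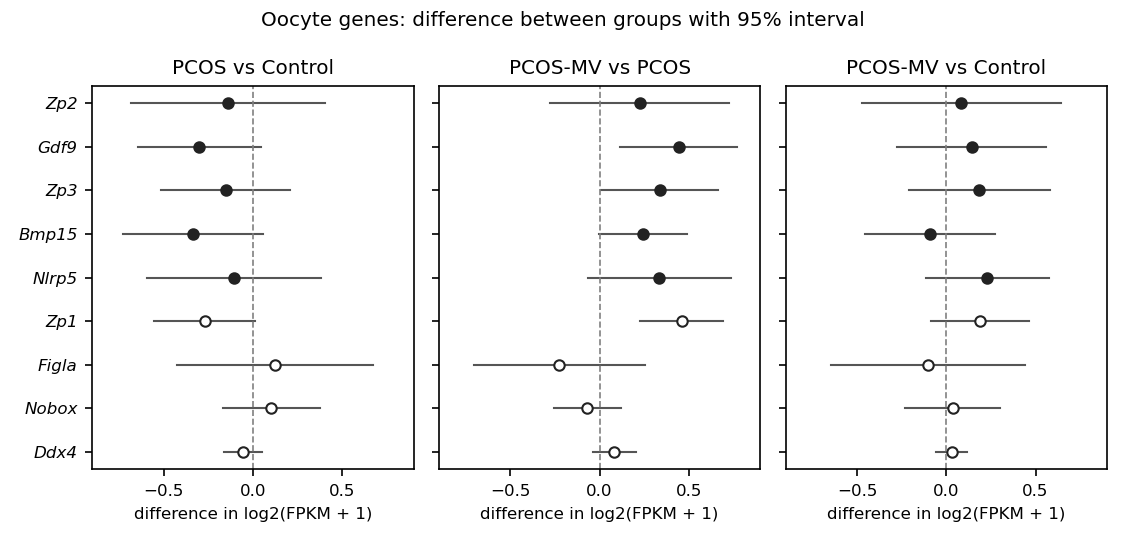
Difference between groups in log2(FPKM + 1) for each oocyte gene in the 3 comparisons, with the 95% interval from limma as a line. Filled points mark the 5 genes whose mean reached 1 FPKM and open points the 4 genes below it, whose intervals come from a fit of all 19730 genes. Most intervals cross 0, and in the panel for PCOS-MV against PCOS those of Gdf9 (0.12 to 0.77), Zp3 (0.01 to 0.67) and Zp1 (0.23 to 0.69) lie above it.

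Of the growth factors, Gdf9 (ENSRNOG00000007301, chromosome 10, 38788992 to 38792940, plus strand, in the coordinates of the deposited table, whose genome build is not given in the sources used here) encodes a factor that rodents need for follicles to grow beyond the primary stage. Its levels were 4.03, 5.11, 3.36 and 5.90 FPKM in Control, 3.88, 3.61, 2.90 and 3.59 FPKM in PCOS, and 4.67, 3.98, 5.22 and 6.82 FPKM in PCOS-MV, in the order of the replicates. All 4 PCOS-MV libraries lay above all 4 PCOS libraries, while Control overlapped PCOS through Control replicate 3. The mean in PCOS-MV was 1.48 times that in PCOS, a log2 difference of 0.44 ± 0.14 (SE, n = 4 per group), with an exact permutation p of 0.0286 and an adjusted p of 0.0527 by limma. Mean Gdf9 in PCOS was 0.759 times that in Control, with a log2 difference of -0.30 ± 0.15 and an adjusted p of 0.176 by limma. Without Control replicate 3 the latter difference was -0.41 with an adjusted p of 0.0491 by limma, which made Gdf9 the 1 oocyte gene called in that comparison. Without PCOS-MV replicate 2 the difference between PCOS-MV and PCOS was 0.54 with an adjusted p of 0.0300 by limma. Gdf9 was called in 1 of 8 fits with 1 library left out in each of these comparisons. The difference ranged from 0.32 to 0.54 for PCOS-MV against PCOS, with an adjusted p of 0.0300 to 0.129 by limma. For PCOS against Control it ranged from -0.41 to -0.19, with an adjusted p of 0.0491 to 0.358 by limma.

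Bmp15 (ENSRNOG00000002984, chromosome X, 17016778 to 17023418, plus strand) encodes the partner of GDF9. It was measured at 1.21, 2.07, 1.53 and 2.55 FPKM in Control, 1.60, 1.25, 1.12 and 0.94 FPKM in PCOS, and 1.55, 1.52, 1.57 and 1.86 FPKM in PCOS-MV. PCOS replicate 1 lay above 3 of the 4 PCOS-MV libraries, so these groups overlapped. Mean Bmp15 in PCOS was 0.667 times that in Control (log2 difference -0.33 ± 0.17, adjusted p = 0.186 by limma), and that in PCOS-MV was 1.32 times that in PCOS (0.24 ± 0.11, adjusted p = 0.137 by limma). The ratio of Gdf9 to Bmp15 ranged from 2.20 to 3.83 over the 12 libraries with a median of 2.75. It was 2.58 ± 0.518 in Control, 2.93 ± 0.633 in PCOS and 3.16 ± 0.453 in PCOS-MV (SD, n = 4 each), and the exact permutation p between groups was 0.143 or higher. The SD of Control Bmp15 was 32.2% of its mean, while counting of fragments alone would give about 7.37%.

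Among the zona pellucida genes, Zp1 (ENSRNOG00000020907, chromosome 1, 226966366 to 226972746, minus strand) encodes the protein that cross-links the filaments of the egg coat. It was measured at 0.71, 0.79, 0.62 and 1.23 FPKM in Control, 0.76, 0.35, 0.50 and 0.47 FPKM in PCOS, and 1.01, 1.02, 0.94 and 1.38 FPKM in PCOS-MV. The lowest PCOS-MV library exceeded the highest PCOS library, which was PCOS replicate 1 and which reached into the Control range. The PCOS-MV mean was 2.09 times the PCOS mean, a log2 difference of 0.46 ± 0.10 (SE, n = 4 per group), with an exact permutation p of 0.0286. Zp1 was under the minimum of 1 FPKM and was therefore not among the genes of the main test. In a fit of all 19730 genes it had an adjusted p of 0.0199 by limma, the 1 oocyte gene called there, beside 17.9% of all genes. About 24 to 94 fragments stood behind a Zp1 value. Mean Zp1 in PCOS was 0.621 times that in Control, with an exact permutation p of 0.0857.

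Zp2 (ENSRNOG00000057989, chromosome 1, 189899892 to 189911650, minus strand) encodes the zona protein that sperm bind and that is cleaved after fertilisation. It did not separate any groups, with 4.51, 3.65, 5.10 and 8.25 FPKM in Control, 4.80, 4.89, 6.19 and 3.00 FPKM in PCOS, and 3.74, 5.53, 5.79 and 7.71 FPKM in PCOS-MV. Its adjusted p was 0.700, 0.492 and 0.929 by limma in the 3 comparisons, and the interval of the PCOS difference from Control ran from -0.68 to 0.40 on the log2 scale. Zp3 (ENSRNOG00000001434, chromosome 12, 23735223 to 23742190, minus strand) encodes the other main filament protein and ranged over 3.00 to 5.40 FPKM in Control, 2.99 to 4.38 FPKM in PCOS and 3.93 to 6.18 FPKM in PCOS-MV. PCOS replicate 4, at 4.38 FPKM, lay above 3 of the 4 PCOS-MV libraries. Mean Zp3 in PCOS-MV was 1.35 times that in PCOS (log2 difference 0.34 ± 0.14, adjusted p = 0.122 by limma, exact permutation p = 0.114).

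The proportions of the zona genes were compared as ratios within each library. Zp2 exceeded Zp1 by 6.29 to 14.1 times in PCOS and by 3.71 to 6.16 times in PCOS-MV, so these groups did not overlap, and the Control libraries lay between 4.60 and 8.19. The exact permutation p of that ratio was 0.0286, or 0.171 after adjustment over the 18 ratio tests that were run. The ratio of Zp3 to Zp1 was narrow in Control (4.37 to 5.16) and in PCOS-MV (4.18 to 4.47) and wide in PCOS (4.16 to 9.30), with an exact permutation p of 0.143 between PCOS and either of the others and of 0.0571 between PCOS-MV and Control. The ratio of Zp2 to Zp3 had a median of 1.37 over the 12 libraries, with an exact permutation p of 0.543 or higher between groups.

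Nlrp5 (ENSRNOG00000022994, chromosome 1, 71453798 to 71486790, minus strand), also called Mater, was measured at 0.99, 1.77, 0.99 and 1.73 FPKM in Control, 1.89, 0.62, 0.93 and 1.48 FPKM in PCOS, and 1.74, 1.49, 1.91 and 1.85 FPKM in PCOS-MV. The PCOS libraries spanned the whole range seen in Control and beyond, and the PCOS-MV libraries were close together, with 2 of the 4 above all Control libraries and 1 above all PCOS libraries. The SD was 46.0% of the mean in PCOS and 10.8% in PCOS-MV. The PCOS-MV mean was 1.42 times the PCOS mean (log2 difference 0.34 ± 0.18, adjusted p = 0.198 by limma), and PCOS against Control gave -0.10 ± 0.21 (adjusted p = 0.751 by limma).

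The oocyte transcription factors had few fragments. Figla (ENSRNOG00000015877, chromosome 4, 117679342 to 117683411, plus strand), which is required for primordial follicles to form, ranged from 0.35 to 1.33 FPKM in Control, 0.49 to 1.55 FPKM in PCOS and 0.25 to 1.0 FPKM in PCOS-MV. These values rest on about 5 to 33 fragments per library. Nobox (ENSRNOG00000025720, chromosome 4, 72751382 to 72756887, minus strand), a homeobox factor that drives Gdf9 and other oocyte genes, ranged from 0.21 to 0.68 FPKM, 0.43 to 0.73 FPKM and 0.45 to 0.73 FPKM in the same order. Unlike the other 7 genes, the mean of both was higher in PCOS than in Control (1.18 times for Figla and 1.20 times for Nobox) and lower in PCOS-MV than in PCOS (0.692 and 0.877 times). The exact permutation p was between 0.343 and 0.657 for these 4 differences, so none exceeded the spread between libraries, and without PCOS replicate 4 the Figla difference between PCOS and Control was -0.02.

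Ddx4 (ENSRNOG00000026686, chromosome 2, 44447573 to 44504354, minus strand) marks germ cells from the embryo to the growing oocyte. It was measured at 0.31, 0.29, 0.24 and 0.31 FPKM in Control, 0.20, 0.16, 0.29 and 0.32 FPKM in PCOS, and 0.29, 0.26, 0.30 and 0.40 FPKM in PCOS-MV. Its 3 groups overlapped, and the exact permutation p ranged from 0.257 to 0.571. The values rest on about 16 to 43 fragments, and the SD of Control Ddx4, 10.9% of its mean, was below the 18.7% that counting alone would give.

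Part of the spread was shared by libraries and not by groups. PCOS-MV replicate 4 held the highest value of Gdf9, Zp1, Zp3 and Ddx4, and 8 of the 9 oocyte genes ranked among the top 3 libraries there. Control replicate 4 held the highest value of Bmp15 and Zp2 and had 7 genes in the top 3. PCOS replicate 2 held the lowest value of Zp1, Zp3, Nlrp5 and Ddx4. Once the group means were removed, Gdf9 varied with Zp3 (r = 0.73) and with Bmp15 (r = 0.70) over the 12 libraries, while Zp2 and Nlrp5 did not vary together (r = -0.07). These correlations share the libraries and their scaling and are given as a description.

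Further oocyte genes were read from a list of 40, of which 37 names were found and 11 reached a mean of 1 FPKM. The difference was negative for 8 of the 11 in PCOS against Control and positive for 8 of the 11 in PCOS-MV against PCOS. In PCOS against Control 1 of 11 was called, beside 27.4% of all genes tested, and it was Ooep, which was higher. In PCOS-MV against PCOS 3 of 11 were called, Ooep lower and Astl and Nlrp14 higher, which is 27.3% beside 25.7% of all genes. In PCOS-MV against Control 0 of 11 were called by limma, beside 0.00745% of all genes, and 2 had an unadjusted p under 0.05, beside 8.5%. The median log2 difference of the 11 was -0.05, 0.23 and 0.13 in these comparisons.

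Ooep encodes a partner of NLRP5 in the subcortical maternal complex. It was measured at 3.40, 2.94, 2.24 and 5.35 FPKM in Control, 10.2, 9.16, 15.4 and 11.4 FPKM in PCOS, and 3.09, 2.71, 3.58 and 4.24 FPKM in PCOS-MV. All 4 PCOS libraries lay above all others. The PCOS mean was 3.31 times the Control mean (log2 difference 1.51 ± 0.22, adjusted p = 0.00138 by limma), and the PCOS-MV mean was 0.295 times the PCOS mean (-1.50 ± 0.17, adjusted p = 0.00057 by limma). Both calls held in 8 of 8 fits that each left out 1 library. The ratio of Ooep to Nlrp5 was 1.66 to 3.44 in Control, 5.42 to 16.6 in PCOS and 1.78 to 2.29 in PCOS-MV, with an exact permutation p of 0.0286 for PCOS against each of the others, or 0.171 after adjustment over the 18 ratio tests. Ooep overlapped no gene of the table, and its nearest neighbour, Dppa5, was 6849 bases away.

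Nlrp14, another NLRP protein of the oocyte, ranged from 2.71 to 5.66 FPKM in Control, 2.79 to 3.67 FPKM in PCOS and 4.07 to 5.48 FPKM in PCOS-MV. Its PCOS-MV mean was 1.45 times the PCOS mean (log2 difference 0.42 ± 0.11, adjusted p = 0.0249 by limma). Astl, which encodes ovastacin, the protease that cleaves ZP2 after fertilisation, ranged from 0.56 to 1.16 FPKM in PCOS and 1.21 to 1.72 FPKM in PCOS-MV (1.71 times, 0.42 ± 0.13, adjusted p = 0.0406 by limma). With 1 library left out, Nlrp14 was called in 5 of 8 fits, being lost without PCOS replicate 2, 3 or 4, and Astl in 2 of 8, being kept only without PCOS replicate 4 or PCOS-MV replicate 2. Padi6, a component of the egg's cytoplasmic lattices and the most abundant gene of the list, was measured at 5.89 to 8.49 FPKM in Control, 5.49 to 8.14 FPKM in PCOS and 7.35 to 11.2 FPKM in PCOS-MV, with adjusted p of 0.814, 0.220 and 0.673 by limma in the 3 comparisons. Zp4, the remaining zona gene, was singled out after its values were seen, and it had a mean of 0.848 FPKM, under the minimum for the test. It ranged from 0.47 to 0.72 FPKM in PCOS and from 0.93 to 1.29 FPKM in PCOS-MV, 1.80 times by the means with an exact permutation p of 0.0286, and its Control libraries (0.64 to 1.18 FPKM) overlapped both.

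**Figure D3:**
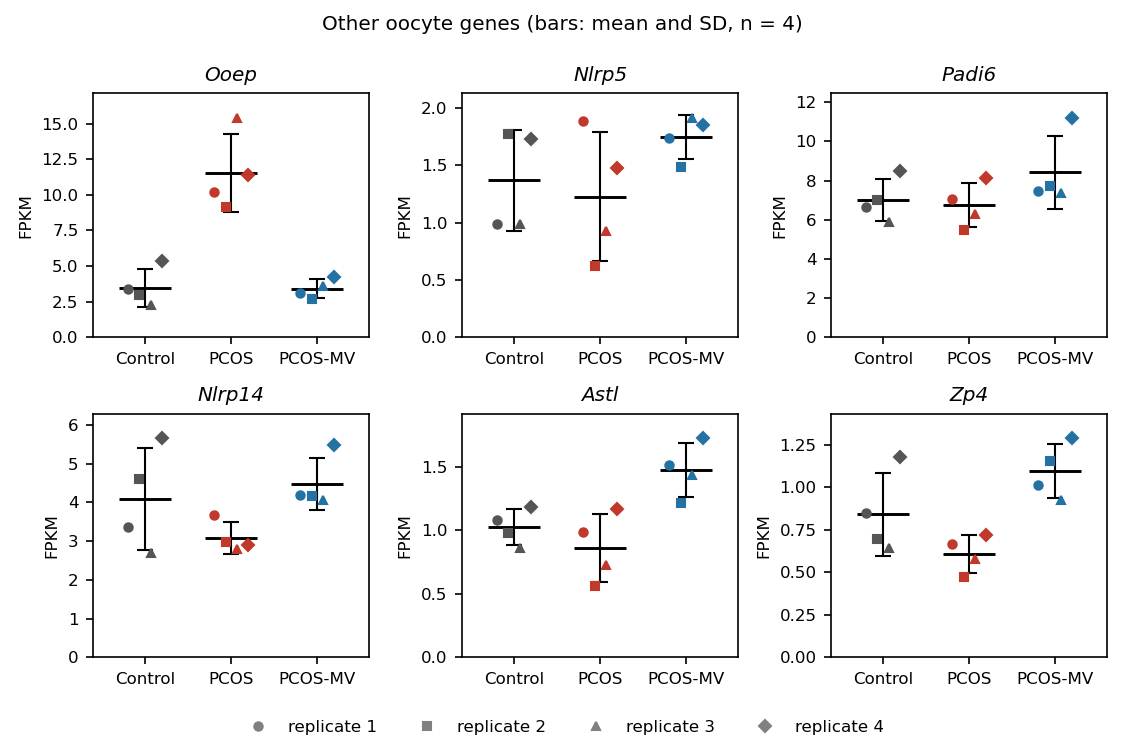
FPKM of Ooep, Nlrp5, Padi6, Nlrp14, Astl and Zp4, with 1 point per library and the mean and SD of the 4 libraries of each group in black. Ooep is the panel in which PCOS (9.16 to 15.4 FPKM) stands above both other groups. In the panels of Nlrp14, Astl and Zp4 the PCOS-MV points lie above all PCOS points, and Nlrp5, the partner of Ooep (0.62 to 1.91 FPKM over the 12 libraries), overlaps throughout.

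Genes that receive, modify or answer the GDF9 and BMP15 signals were read from a list of 26, all found, of which 22 reached 1 FPKM. Those that answer the signals were listed as genes of granulosa and cumulus cells. In PCOS against Control 5 of 22 were called, 3 higher (Bmpr1b, Pcsk6 and Nppc) and 2 lower (Fst and Fstl3), which is 22.7% beside 27.4% of all genes. In PCOS-MV against PCOS 5 of 22 were called, Fst higher and Bmpr1b, Pcsk6, Nppc and Tnfaip6 lower, which is 22.7% beside 25.7% of all genes. In PCOS-MV against Control 0 of 22 were called by limma, beside 0.00745% of all genes, and 1 had an unadjusted p under 0.05, beside 8.5%. The median log2 difference of the 22 was -0.05, -0.06 and -0.04, where that of all genes was -0.03, 0.03 and -0.0037.

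Of the receptors, Bmpr2, the shared type II receptor of GDF9 and BMP15, had the highest mean of the list at 59.8 FPKM and was not called (adjusted p = 0.734, 0.303 and 0.660 by limma). It was called lower in PCOS-MV than in PCOS in 1 of 8 fits with 1 library left out, without PCOS-MV replicate 3 (-0.41, adjusted p = 0.0141 by limma). That replicate stood at 73.5 FPKM and the other PCOS-MV libraries at 41.0 to 49.1 FPKM, beside 56.5 to 65.1 FPKM in PCOS. Bmpr1a, a type I receptor of bone morphogenetic proteins, was also not called, at 34.3 to 43.0 FPKM over the 12 libraries. Its PCOS-MV libraries (35.4 to 39.5 FPKM) lay below all PCOS libraries (40.2 to 43.0 FPKM), and 23.9% of all genes in the table were separated there in either direction. The exact permutation p was 0.0286 and the adjusted p was 0.102 by limma. Bmpr1b, the type I receptor used by BMP15, was measured at 26.3, 37.9, 39.7 and 49.2 FPKM in Control, 54.5, 57.7, 64.6 and 53.8 FPKM in PCOS, and 25.3, 31.9, 37.9 and 31.0 FPKM in PCOS-MV. All PCOS libraries lay above all others, at 1.51 times the Control mean (log2 difference 0.61 ± 0.17, adjusted p = 0.0280 by limma), and the PCOS-MV mean was 0.547 times the PCOS mean (-0.86 ± 0.12, adjusted p = 0.00162 by limma). The rise in PCOS was called in 3 of 8 fits that left out 1 library, being lost without Control replicate 2 and without any 1 of the PCOS libraries, and the lower level in PCOS-MV was called in 8 of 8. None of the 8 SMAD genes, the intracellular signal carriers, was called in any of the 3 comparisons. In PCOS-MV against PCOS the inhibitory Smad7 had an adjusted p of 0.053 by limma, and it was called in 2 of 6 alternatives that kept every library and in 2 of 8 fits with 1 left out, as Smad2 was in 1 of 8 (both named after their values were seen).

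Among secreted regulators, Fst encodes follistatin, which binds activins and some bone morphogenetic proteins. It was measured at 37.6, 46.8, 29.5 and 41.9 FPKM in Control, 24.7, 25.1, 18.6 and 22.5 FPKM in PCOS, and 39.8, 55.5, 33.5 and 42.1 FPKM in PCOS-MV. The PCOS libraries lay below all others, at 0.583 times the Control mean (log2 difference -0.74 ± 0.15, adjusted p = 0.00713 by limma), and the PCOS-MV mean was 1.88 times the PCOS mean (0.87 ± 0.16, adjusted p = 0.00508 by limma). Fstl3, a follistatin-like protein, fell in PCOS to 0.557 times the Control mean (-0.66 ± 0.11, adjusted p = 0.00228 by limma). In PCOS-MV, Fstl3 was uneven at 4.11, 8.80, 2.98 and 10.3 FPKM, with an adjusted p of 0.0558 against PCOS by limma. Pcsk6, a proprotein convertase, rose from 5.96 to 8.19 FPKM in Control to 16.3 to 17.2 FPKM in PCOS (1.12 ± 0.10, adjusted p = 0.0001 by limma), and was split in PCOS-MV between 5.41 and 6.59 FPKM in replicates 1 and 3 and 11.6 and 12.3 FPKM in replicates 2 and 4. Its lower level in PCOS-MV (-0.89 ± 0.23, adjusted p = 0.0219 by limma) was not called without PCOS replicate 2, 3 or 4.

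Among the responding genes, Nppc encodes C-type natriuretic peptide, a granulosa cell signal that holds the oocyte in meiotic arrest. It was measured at 4.46 to 5.21 FPKM in Control, 9.75 to 14.1 FPKM in PCOS and 3.53 to 5.76 FPKM in PCOS-MV, with PCOS above all others. Its log2 difference was 1.05 ± 0.12 for PCOS against Control (adjusted p = 0.00032 by limma) and -1.10 ± 0.16 for PCOS-MV against PCOS (adjusted p = 0.00181 by limma). Tnfaip6, a gene of the expanding cumulus matrix, fell from 1.54 to 2.0 FPKM in PCOS to 0.93 to 1.48 FPKM in PCOS-MV (-0.33 ± 0.10, adjusted p = 0.0492 by limma), a call that held in 1 of 8 fits with 1 library left out. Tnfaip6 stood at 9.76 FPKM in Control replicate 3 and at 1.13 to 1.22 FPKM in the other Control libraries, and without that replicate it was called higher in PCOS than in Control (0.33, adjusted p = 0.0415 by limma). The granulosa marker sums given above were above Control in all PCOS libraries, as Bmpr1b and Nppc were. In PCOS-MV replicate 3 the sum, 1105 FPKM, lay in the PCOS range, while Bmpr1b (37.9 FPKM) and Nppc (5.76 FPKM) lay below all PCOS libraries. The part of granulosa cells in these differences was not tested.

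**Figure D4:**
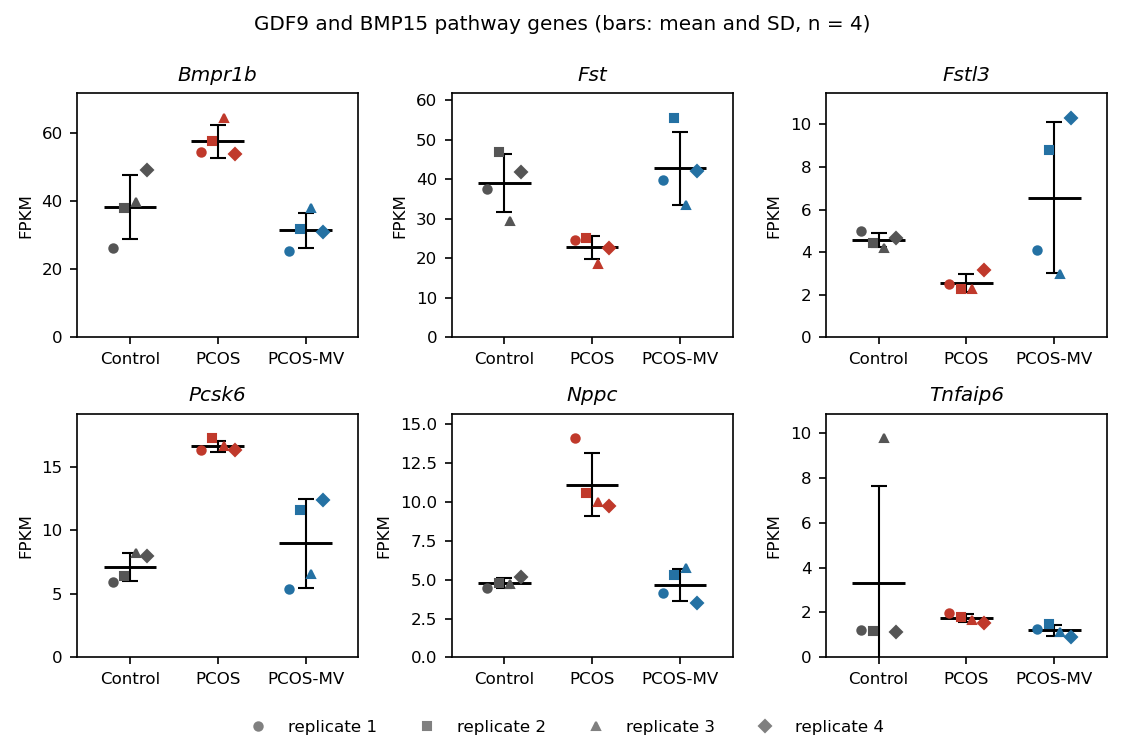
FPKM of the 6 genes of the GDF9 and BMP15 list that were called in at least 1 comparison of the main test, with 1 point per library and the mean and SD of the 4 libraries of each group in black. PCOS stands above both other groups for Bmpr1b, Pcsk6 and Nppc and below both for Fst. Control replicate 3 (9.76 FPKM) stands alone in the panel of Tnfaip6.

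The genes whose pattern was most like that of the oocyte genes were sought by the mean Pearson r with the 5 tested oocyte genes over the 12 libraries, after the group means were removed, among 13425 other genes. Nlrp14 came first with a mean r of 0.71, where the median of all genes was 0.06. The next 9 were AABR07055919.2, XLOC_078758, Arhgap32, Sp1, B630019K06Rik, Ptprd, Ncor1, Arfgap2 and Smoc1, with mean r from 0.70 to 0.66. Of the 11 further oocyte genes, 4 were among the first 100 (Nlrp14 and Padi6, and Npm2 and Zar1, which are named here only after their values were seen), and their 11 mean r values had a median of 0.49. Ooep, called in the opposite direction to Nlrp14 and Astl in PCOS-MV against PCOS, had a mean r of 0.49 within groups. With 12 libraries and 13425 genes, such values order the genes and carry no test.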

How the data were processed

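Total RNA of ovary tissue from 12 rats was sequenced in paired-end libraries and assigned to groups by the titles and treatments in the labels. Whether a whole ovary was used for each is not given in the sources used here. Columns headed MG were read as PCOS-MV, since mogroside V is the agent that only this group received. The authors filtered reads and deposited FPKM per gene, which they computed from counts and gene lengths. The paper names HISAT2 and featureCounts for this, whereas the submitters' processing notes name STAR 2.5.1b and HTSeq 0.6.0, and the genome build is not given in the sources used here. How reads shared between similar genes were counted is likewise not given. The file also holds the authors' own fold changes and p-values, which were not used.

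A gene's values were the same on each of its lines among the 26928 lines of the table, and 1 line per gene was kept (19730 genes). With a minimum mean of 1 FPKM, 13430 genes were compared between pairs of groups, 4 libraries against 4, as log2(FPKM + 1), which understates the change of low genes. The test was limma 3.58.1 in R 4.3.3 (lmFit, eBayes with trend) with no covariate, and genes were called at a Benjamini-Hochberg adjusted p under 0.05 over all genes tested. Count tests had been planned only for a table of counts. For single values, all divisions of the 8 libraries were enumerated in a two-sided exact permutation test (scipy 1.17.1). Tables were made with pandas 2.3.3 and plots with matplotlib 3.10.9 in Python 3.11.15. The depth implied by the steps of FPKM was 30200000 to 37100000 fragments per library, and the counting errors and fragment numbers derived from it cover counting error only. For Zp2, which has 2 transcripts, the longer one was used. P-values set the difference between groups against the spread between libraries, 1 per rat, which holds variation between rats and technical variation together.

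In 10 simulated sets of 13430 genes for PCOS against Control, each with 200 genes shifted by 1.5 log2 units, limma recovered 90.2% of the changed genes and 5.35% of its calls were false. The largest difference of an oocyte gene was 0.46 log2 units (Zp1, PCOS-MV against PCOS). Recovery of differences of that size was not tested, so the 90.2% does not apply to the oocyte genes. The oocyte genes, the lists and the tests were chosen with earlier results of these data known. Named genes were all 10 oocyte genes, in each list the called genes (up to 8 per comparison) and the 3 with the highest mean, and the 10 genes most like the tested oocyte genes. Of the marker lists for other cell types, the sums in the 12 libraries were also read for luteal cells, erythroid cells and leukocytes. Luteal sums were 1062 to 2255 FPKM in Control, 606 to 1115 FPKM in PCOS and 575 to 2192 FPKM in PCOS-MV. Most of the luteal sum was Scarb1. In PCOS against Control, Scarb1 (0.378 times) and Ptgfr (0.217 times) were called lower and Lhcgr higher (2.53 times), while Prlr (1.06 times) was not called. Erythroid sums were 944 to 1469, 516 to 1411 and 305 to 791 FPKM in the same order of groups. Leukocyte sums were 20.3 to 33.5, 17.6 to 25.8 and 24.9 to 35.8 FPKM. In PCOS-MV against PCOS, Cd68 was called higher (1.79 times), while Ptprc (1.14 times) and Cd3e (0.595 times) were not called. Alternatives were a pseudocount of 0.1, all genes kept whatever their level, a joint model of the 12 libraries, the replicate number as a block, rescaling to a common sum or by the median ratio, and each library left out in turn.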

Additional observations from a re-analysis of the deposited data

Results flagged for a closer look

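In 63 groups of 4 libraries, formed by the oocyte genes and the named genes of both lists, 4 held a library far from the other 3, where chance gives about 3.1. PCOS-MV replicate 4 stood apart for 3 of these: Bmp15 at 1.86 FPKM against 1.52 to 1.57 FPKM in the other PCOS-MV libraries, Nlrp14 at 5.48 FPKM against 4.07 to 4.18 FPKM, and Padi6 at 11.2 FPKM against 7.35 to 7.70 FPKM. Control replicate 3, the library with the oviduct and smooth muscle markers, stood apart for Tnfaip6 at 9.76 FPKM against 1.13 to 1.22 FPKM.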

How the results depend on the processing

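The count of oocyte genes called stayed at 0 under every alternative for PCOS-MV against Control. For PCOS against Control it was 0 under all settings that kept every library and 0 to 1 with 1 library left out. For PCOS-MV against PCOS it became 1 without the filter on low values (Zp1), 1 after rescaling to a common sum (Gdf9, 0.51, adjusted p = 0.0397 by limma) and 0 to 1 with 1 library left out. Further oocyte genes called in PCOS-MV against PCOS numbered 1 to 3 and GDF9 and BMP15 genes 3 to 8 with 1 library left out, and all genes called in PCOS-MV against Control 1 to 4. The count of 1 arose without PCOS replicate 2 or 3, the count of 3 pathway genes without PCOS replicate 2, 3 or 4, and the highest pathway count without PCOS-MV replicate 3. Of the 6 alternatives that kept every library, Nlrp14 was called in 4 and Tnfaip6 in 2 for PCOS-MV against PCOS, Bmpr1b and Fstl3 in 5 for PCOS against Control, and Fstl3, not called in PCOS-MV against PCOS as reported, in 3.

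With the replicate number as a block, 1 oocyte gene was called in PCOS-MV against PCOS (Zp3, 0.34, adjusted p = 0.0442 by limma) and 0 genes of the whole table in PCOS-MV against Control. In PCOS-MV against PCOS the block also lost the calls of Nlrp14 and Tnfaip6 and added Fstl3 and Smad7. The deviations of same-numbered libraries from their group means did not all correlate above 0.1 (r = -0.03 to 0.02 for PCOS and Control, 0.04 to 0.17 for PCOS-MV and PCOS, -0.05 to 0.22 for PCOS-MV and Control). In PCOS-MV and PCOS, 3 of the 4 numbers correlated best with their own, but not number 4 (r = 0.035, beside 0.038 with another number). In PCOS-MV and Control only number 1 did so, and in PCOS and Control no number did. The rats were different animals in each group, so the main test assumed no pairing. What same-numbered libraries shared was not tested.

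The sign of an oocyte gene reversed in 12 fits, each with 1 library left out and none of them called. In PCOS against Control these were Zp2 without Control replicate 4 or PCOS replicate 4 (0.023), Nlrp5 without PCOS replicate 2 and Figla without PCOS replicate 4. In PCOS-MV against Control they were Bmp15 without Control replicate 4, Zp2 without Control replicate 2 (-0.051) or PCOS-MV replicate 4, Figla without Control replicate 1 or PCOS-MV replicate 1 (0.016), Nobox without Control replicate 1 or PCOS-MV replicate 4 (-0.023), and Ddx4 without PCOS-MV replicate 4. With 1 library left out, the difference ranged from -0.28 to 0.056 for Zp2, -0.24 to 0.038 for Nlrp5 and -0.025 to 0.27 for Figla in PCOS against Control. It ranged from -0.20 to 0.024 for Bmp15, -0.053 to 0.28 for Zp2, -0.22 to 0.043 for Figla, -0.068 to 0.089 for Nobox and -0.0024 to 0.047 for Ddx4 in PCOS-MV against Control. The causes of these changes were not tested. In Control, counting alone would give an SD of about 25.7% of the mean for Figla, where 63.5% was measured, 19.4% for Nobox, where 42.2% was measured, and 18.7% for Ddx4, where 10.9% was measured.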
